A study of Mus musculus with 8 samples.

Results

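Of the 39017 genes in the deposited count table, 9 are described here: the transcription factor genes Atoh1, Barhl1, Barhl2, Nhlh1, Nhlh2, Lhx2, Lhx9, Pou4f1 and Atoh7, which mark the Atoh1 lineage of the rhombic lip and excitatory neurons of the cochlear nucleus. They were chosen by gene symbol, through the Ensembl identifier of each row, and all 9 passed the filter on low counts. Their RNA was measured by sequencing in cells sorted by fluorescence from the cochlear nucleus, the first hindbrain relay of hearing, of C57BL/6 mouse embryos at stage E18.5. The 4 mutant samples carried Math1::Cre and the Rosa tdTomato reporter together with conditional alleles that the sample titles write as Hoxa2+/fl and Hoxb2fl/fl. The 4 wild type samples carried the same Cre and reporter without the conditional alleles. The series' design text instead calls both Hox alleles homozygous in the mutant, and the removed part of either gene is not stated. Cre was driven by Math1, another name of Atoh1, so the sorted cells are those in which this driver had been active at some time, and both groups share it. Each sample held 30000 cells from 3 pooled littermates, and each pool came from a different mother. The study addressed the role of Hoxa2 and Hoxb2 in part of the cochlear nucleus.

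Atoh1 encodes a proneural basic helix-loop-helix (bHLH) protein. It is switched on in dividing progenitors of the rhombic lip, the dorsal edge of the hindbrain, and is required there for the excitatory neurons of the cochlear nucleus and for granule cells. As these cells leave the cycle, Atoh1 is normally lost and genes such as Barhl1, Barhl2, Nhlh1 and Nhlh2 mark the young neurons, while LIM homeobox, POU and further bHLH factors go with particular neuron types.

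Total counts ranged from 24789043 to 51118195 per library, and libraries are named by group and the number in their column heading, mutant 1 to 4 and wild type 5 to 8. Levels are CPM, the share of a library's counts after TMM scaling between libraries. Of the targeted genes, Hoxb2 was at 5.02 ± 1.49 CPM in mutant and 40.1 ± 4.41 CPM in wild type libraries (SD, n = 4 each), and Hoxa2 was at 26.7 ± 15.7 CPM in mutant and 43.2 ± 11.0 CPM in wild type libraries (SD, n = 4 each). Hoxb2 fell and Hoxa2 did not pass the test (edgeR adjusted p = 3.76e-05 and 0.506). Hoxb2 shares 953 exon bases with the antisense gene Hoxb3os, and without strand their reads cannot be told apart. Hoxa2 shares 267 of its 1775 exon bases with Gm28308 on the same strand, and how shared reads were counted is not stated. In 3 libraries, mutant 1 and wild type 5 and 6, the summed level of the cell cycle genes Mki67, Top2a, Cdk1 and Ccnb1 was 605 to 833 CPM, against 169 to 313 CPM in the other 5. Results without these 3 are therefore also given for Nhlh1, Barhl2, Atoh1, the ratio of Nhlh1 to Nhlh2 and some related genes. Of 12 lists of markers of cell types and states, none had summed levels that were separate between mutant and wild type libraries. The largest sum was that of granule and unipolar brush cell markers (5 of 5 in the table), which include Neurod1 and Pax6. It was 2798 to 3680 CPM in mutant and 3053 to 3638 CPM in wild type libraries. Neurod1 alone, also listed below as a bHLH relative, was at 1431 to 2322 CPM in mutant and 1637 to 1809 CPM in wild type libraries. Sums over different genes do not measure the share of each cell type. Inhibitory neuron markers (6 of 6 in the table) summed to 44.9 to 104.8 CPM in mutant and 31.4 to 58.9 CPM in wild type libraries. Cranial ganglion markers (5 of 5) summed to 0.945 to 2.21 CPM in mutant and 2.12 to 3.43 CPM in wild type libraries, with at most 2 of the 5 at 0 in a library. The part of these cell types in the results was not tested.

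The members fell into 2 ranges of level. Per kilobase of the deposited gene length, Barhl1 was highest at 117.9 ± 19.9 CPM per kilobase in mutant and 133.6 ± 3.98 in wild type libraries (SD, n = 4 each). Nhlh2 followed at 60.8 ± 9.96 in mutant and 62.4 ± 4.57 in wild type libraries, and Atoh1 at 29.5 ± 23.6 in mutant and 43.1 ± 21.6 in wild type libraries. Barhl2 was at 26.8 ± 6.57 in mutant and 42.7 ± 4.81 in wild type libraries, and Nhlh1 at 18.8 ± 2.79 in mutant and 36.2 ± 2.28 in wild type libraries. These 5 genes stood above at least 93.3% of tested genes in wild type libraries. The other 4 were lower: Atoh7 at 4.05 ± 3.69 in mutant and 4.49 ± 1.72 in wild type libraries, and Lhx9 at 1.37 ± 0.717 in mutant and 1.03 ± 0.261 in wild type libraries. Lhx2 was at 0.71 ± 0.573 in mutant and 0.855 ± 0.41 in wild type libraries, and Pou4f1 at 0.355 ± 0.223 in mutant and 0.767 ± 0.433 in wild type libraries. In wild type libraries Atoh7 stood above 53.1% of tested genes, Lhx9 above 26.2%, Lhx2 above 23.6% and Pou4f1 above 22.1%. The order was the same in mutant and wild type means. Within wild type libraries Barhl1 lay above Nhlh2, Nhlh1 above Atoh7, and Atoh7 above Lhx9 without overlap, whereas Nhlh2, Atoh1, Barhl2 and Nhlh1 overlapped their neighbours, as did Lhx9, Lhx2 and Pou4f1. Levels and ranks of several members depended on gene length, among them Atoh7 and Nhlh2. The deposited length of Atoh7 is 450 bases and that of Nhlh2 3353 bases, where the exons of GENCODE M21 on the same build cover 1629 and 5417 bases. With the M21 lengths Atoh7 was at 1.24 ± 0.475 and Nhlh2 at 38.6 ± 2.83 CPM per kilobase in wild type libraries (SD, n = 4). Nhlh2 then ranked 4, below Barhl2 and Atoh1, and Atoh7 overlapped Lhx2, its next lower neighbour. Lhx2 at 0.855 then ranked 7 and Lhx9 at 0.741 ranked 8, while Pou4f1 at 0.463 stayed lowest.

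**Figure D1:**
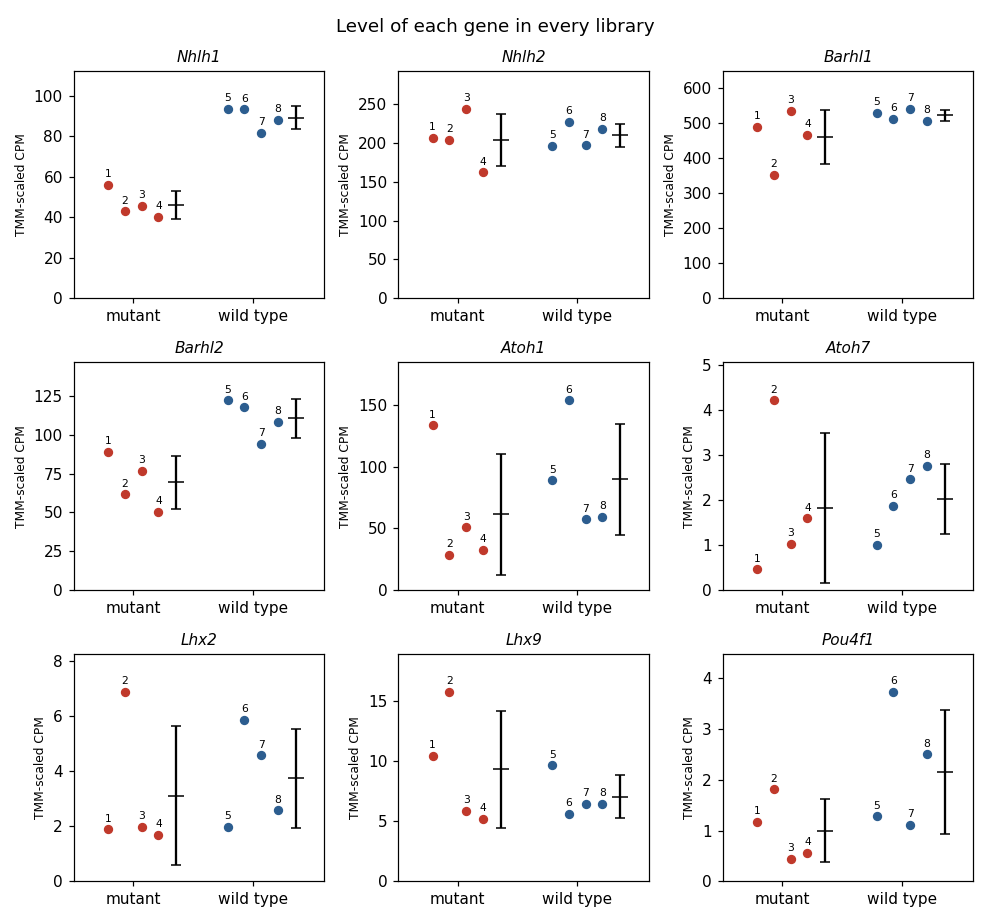
Level of each gene in TMM-scaled CPM on a linear axis from 0, with 1 point for each library, numbered as in the column headings, mutant libraries left and wild type right; the bar beside each group is the mean and SD of 4 libraries. Mutant and wild type points are separate for Nhlh1, at 40.4 to 56.1 against 81.7 to 93.7 CPM, and narrowly for Barhl2, while the other 7 genes overlap.

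Between the groups, 1 of the 9 members passed the test over all genes. Nhlh1 fell, and none rose (edgeR quasi-likelihood test, Benjamini-Hochberg adjusted p below 0.05 over 19494 genes). Of all tested genes 0.359% passed, 0.215% lower in mutants and 0.144% higher. In 2 of the 9, Nhlh1 and Barhl2, every mutant library lay below every wild type library, which held for 2.94% of all tested genes (6.17% were separate in either direction). The median log2 fold change of the 9 was -0.28, beside -0.01 for all tested genes, and 8 of the 9 had a negative value, as did 51.6% of tested genes. At an unadjusted p below 0.05 there were 3 members, Nhlh1, Barhl2 and Pou4f1, all with negative values, and 12.5% of tested genes (5.29% with negative values).

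**Figure D2:**
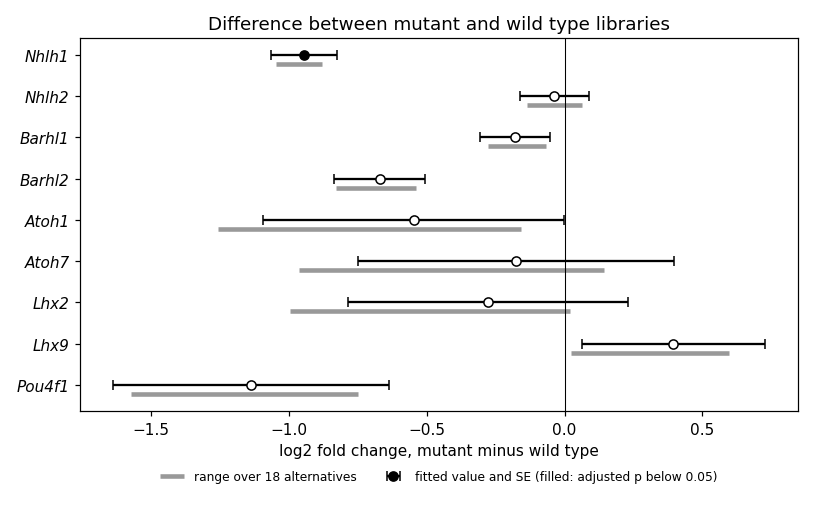
Log2 fold change of each gene, mutant minus wild type, as the fitted value with its standard error (circle and bar, filled where the adjusted p is below 0.05), and below it in grey the range over 18 alternative settings. Nhlh1 is the only filled circle, at -0.95, and its grey range runs from -1.05 to -0.88; the ranges of Nhlh2, Lhx2 and Atoh7 cross 0.

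The promoter sequences of the Nhlh and Barhl genes are shown because in each pair the gene that was lower in every mutant library stands beside a relative that overlapped the wild type. The windows run from 250 bases before to 50 bases after the RefSeq start on GRCm38.p6, 5′ to 3′ on the gene's strand, and capitals mark matches to CANNTG, the E-box to which bHLH proteins bind. They are chr1:172057547-172057846 (minus strand) for Nhlh1, chr3:102009895-102010194 (plus) for Nhlh2, chr5:106458117-106458416 (minus) for Barhl2 and chr2:28916619-28916918 (minus) for Barhl1. The RefSeq start of Nhlh1 lies upstream of the gene end in GENCODE M21.
Nhlh1: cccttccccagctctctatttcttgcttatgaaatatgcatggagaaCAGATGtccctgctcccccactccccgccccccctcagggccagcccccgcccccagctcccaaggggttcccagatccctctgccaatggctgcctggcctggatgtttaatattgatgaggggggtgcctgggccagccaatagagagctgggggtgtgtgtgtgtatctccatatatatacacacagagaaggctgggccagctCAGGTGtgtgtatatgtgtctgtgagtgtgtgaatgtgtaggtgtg
Nhlh2: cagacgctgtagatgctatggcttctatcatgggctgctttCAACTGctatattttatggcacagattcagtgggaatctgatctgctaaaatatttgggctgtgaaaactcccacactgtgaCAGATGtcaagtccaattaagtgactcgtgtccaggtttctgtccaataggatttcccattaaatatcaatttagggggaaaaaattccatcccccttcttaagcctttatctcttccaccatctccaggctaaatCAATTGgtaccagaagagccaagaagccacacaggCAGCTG
Barhl2: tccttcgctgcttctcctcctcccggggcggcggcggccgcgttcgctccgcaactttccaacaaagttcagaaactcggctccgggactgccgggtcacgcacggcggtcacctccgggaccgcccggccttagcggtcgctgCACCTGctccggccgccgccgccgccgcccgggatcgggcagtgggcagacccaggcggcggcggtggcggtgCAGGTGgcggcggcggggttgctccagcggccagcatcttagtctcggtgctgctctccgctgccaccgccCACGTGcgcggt
Barhl1: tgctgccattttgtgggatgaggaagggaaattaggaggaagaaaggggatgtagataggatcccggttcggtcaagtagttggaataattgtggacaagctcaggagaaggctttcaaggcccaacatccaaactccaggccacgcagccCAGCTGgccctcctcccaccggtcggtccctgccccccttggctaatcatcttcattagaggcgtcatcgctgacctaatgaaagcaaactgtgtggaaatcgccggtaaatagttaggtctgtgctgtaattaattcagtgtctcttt

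CANNTG was matched 2 times in the Nhlh1 window, 4 times in that of Nhlh2, 3 times in that of Barhl2 and 1 time in that of Barhl1. The motif reads the same on both strands, and 72.3% of 32851 promoter windows of this length hold it. Its form CAGCTG, 1 of the forms that Atoh1 can bind, was matched 1 time each in the Nhlh2 and Barhl1 windows. It was not matched in those of Nhlh1 and Barhl2, and 16.3% of all windows hold it. Other forms of CANNTG were not counted apart, so a window without CAGCTG may still hold a form that Atoh1 can bind. Among the forms not counted is CAGATG, which the windows of Nhlh1 and Nhlh2 both hold. On either strand TGATNNAT, a motif of Hox proteins with Pbx, was matched in none of the 11 windows of the 9 genes, against 8.85% of all windows. TGACAG, bound by Meis proteins, was matched in the Nhlh2 window and not in those of Nhlh1, Barhl2 or this Barhl1 start, against 19.2% of all windows. The window of another Barhl1 start, chr2:28912446-28912745 (minus), held 1 match to TGACAG, 1 to CAGCTG and 2 to CANNTG. A match describes these letters only and is no measure of binding.

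Nhlh1 and Nhlh2 encode closely related bHLH proteins, also called HEN1 and HEN2, which are made as neurons become postmitotic. Nhlh1 (ENSMUSG00000051251, mm10 chromosome 1, 172052292 to 172057573, minus strand) had raw counts of 1713, 1094, 2349 and 1496 in mutant 1 to 4, against 3645, 2396, 2856 and 3481 in wild type 5 to 8. Scaled levels were 56.1, 43.1, 45.6 and 40.4 CPM in mutant 1 to 4, against 93.7, 93.3, 81.7 and 88.1 CPM in wild type 5 to 8. All mutant libraries were below all wild type libraries, and the group means were 46.3 ± 6.86 CPM in mutant and 89.2 ± 5.61 CPM in wild type libraries (SD, n = 4 each). The log2 fold change was -0.95 (SE 0.119, edgeR adjusted p = 0.00603), or 1.93-fold lower, and Nhlh1 ranked 13 by p among all tested genes. Within each group the libraries rich in cell cycle RNA had the highest Nhlh1: mutant 1 among mutants, and wild type 5 and 6 among wild types. Without those 3 the value was -0.97 (edgeR adjusted p = 0.00913), so the difference was as large among the remaining 5. The call held in all 18 alternatives, with edgeR, DESeq2 or limma adjusted p of at most 0.0325, where 0.0751% to 1.03% of tested genes were called lower. In bulk RNA, fewer cells that make Nhlh1 and less Nhlh1 RNA in each cell cannot be told apart.

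Nhlh2 (ENSMUSG00000048540, chromosome 3, 102010076 to 102015492, plus strand) did not show such a difference. It stood at 206, 204, 244 and 162 CPM in mutant 1 to 4, against 196, 226, 196 and 218 CPM in wild type 5 to 8. The mutant libraries spanned the whole wild type range. Means were 203.8 ± 33.4 CPM in mutant and 209.2 ± 15.3 CPM in wild type libraries (SD, n = 4 each), and the log2 fold change was -0.04 (SE 0.126, edgeR adjusted p = 0.925). Its approximate 95% interval ran from -0.28 to 0.21. That interval leaves out a change of the size seen for Nhlh1.

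The ratio of the paralogs within a library does not depend on scaling between libraries. There were 0.272, 0.212, 0.187 and 0.25 Nhlh1 counts for each Nhlh2 count in mutant 1 to 4, against 0.477, 0.412, 0.416 and 0.405 in wild type 5 to 8. The groups were separate, and the log2 ratio differed by -0.90 between mutant and wild type means (exact two-sided permutation p = 0.0286, the smallest that 70 splits of 8 libraries allow, and 0.114 adjusted over the 4 pairs compared). With adjustment over 4 pairs this design could not have passed for a single separated pair.

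**Figure D3:**
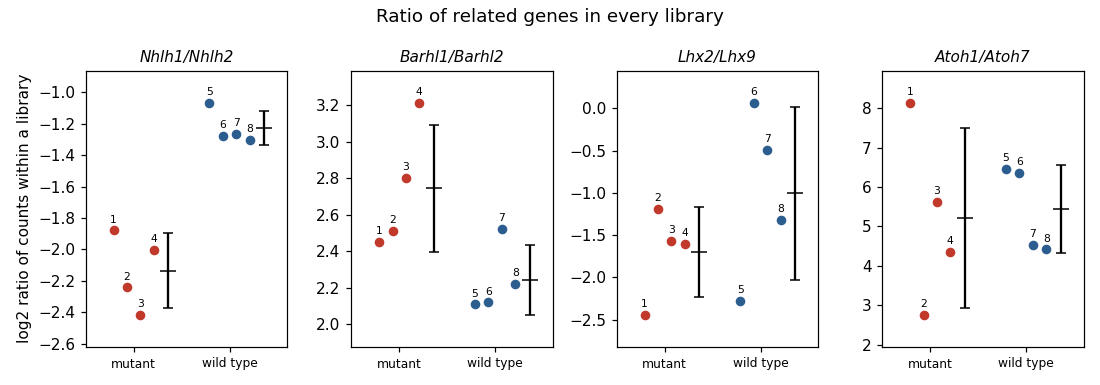
Log2 ratio of raw counts of related genes within each library (0.5 added to each count), 1 point for each library with its heading number, mutant left and wild type right, with the mean and SD of 4 libraries beside each group. Only for Nhlh1 over Nhlh2 are the groups separate, with mutant values from -2.42 to -1.88 and wild type values from -1.31 to -1.07.

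Barhl1 and Barhl2 encode homeodomain proteins of the BarH class that are made downstream of Atoh1 in excitatory lineages of the hindbrain and spinal cord. Barhl2 (ENSMUSG00000034384, chromosome 5, 106452523 to 106458166, minus strand) was at 89.3, 61.8, 76.7 and 50.3 CPM in mutant 1 to 4, against 122, 118, 94.2 and 109 CPM in wild type 5 to 8. The groups were separate, but mutant 1 lay only just under wild type 7. Means were 69.5 ± 17.1 CPM in mutant and 110.8 ± 12.5 CPM in wild type libraries (SD, n = 4 each), and the log2 fold change of -0.67 (SE 0.164) did not pass (edgeR adjusted p = 0.123). Barhl2 passed in 4 of 18 alternatives. Without mutant 1 it was at -0.81 (edgeR adjusted p = 0.0171, where 1.03% of tested genes were called lower), and with no low-count filter the adjusted p was 0.025 (0.251% called lower). DESeq2 gave an adjusted p of 0.0278 (0.86% called lower), and limma-voom gave 0.0296 where sample quality weights were added (0.503% called lower). Without mutant 1 and wild type 5 and 6 together it was -0.68 with an edgeR adjusted p of 0.141.

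Barhl1 (ENSMUSG00000026805, chromosome 2, 28907679 to 28916668, minus strand) was at 489, 352, 535 and 467 CPM in mutant 1 to 4, against 528, 512, 540.5 and 506 CPM in wild type 5 to 8. Mutant 2 was the lowest library, and mutant 3 lay among the wild types. The coefficient of variation was 16.9% over mutant and 2.98% over wild type libraries. The log2 fold change was -0.18 (SE 0.127, edgeR adjusted p = 0.574), with an approximate 95% interval from -0.43 to 0.07. The log2 ratio of Barhl1 to Barhl2 was 2.74 ± 0.348 in mutant and 2.24 ± 0.192 in wild type libraries (SD, n = 4 each). This difference of 0.50 did not pass (exact two-sided permutation p = 0.0857, and 0.171 adjusted over 4 pairs). Wild type 7 lay above mutant 1 and mutant 2.

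Atoh1 (ENSMUSG00000073043, chromosome 6, 64729125 to 64731245, plus strand) varied more between libraries than between groups. It was at 133.9, 28.5, 51.0 and 32.7 CPM in mutant 1 to 4, against 89.1, 154, 57.5 and 59.3 CPM in wild type 5 to 8. The 3 highest were mutant 1 and wild type 5 and 6, the same libraries in which the cell cycle genes were highest, and in the other 5 Atoh1 was at 28.5 to 59.3 CPM. Means were 61.5 ± 49.2 CPM in mutant and 90.0 ± 45.2 CPM in wild type libraries (SD, n = 4 each), and the log2 fold change was -0.55 (SE 0.545, edgeR adjusted p = 0.701). The biological coefficient of variation fitted for Atoh1 was 52.1%, against 21.2% for the median gene. Without mutant 1 the value was -1.26 (edgeR adjusted p = 0.141) and without wild type 6 it was -0.16 (0.935). Without the 3 libraries it was -0.63 and did not pass (edgeR adjusted p = 0.328). Whether the share of dividing cells has a part in the level of Atoh1 was not tested.

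**Figure D4:**
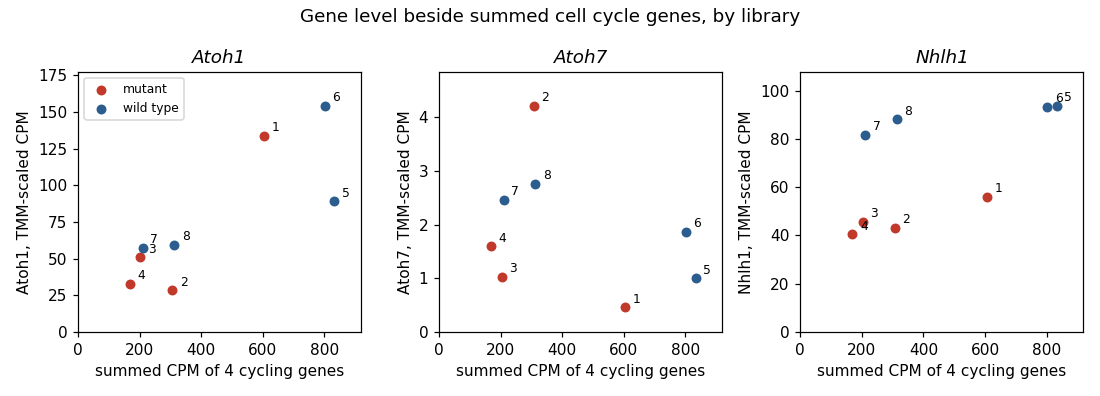
Level of Atoh1, Atoh7 and Nhlh1 in TMM-scaled CPM against the summed CPM of Mki67, Top2a, Cdk1 and Ccnb1, with 1 numbered point for each library and linear axes from 0. Mutant 1 and wild type 5 and 6, at 605 to 833 CPM of cell cycle genes, have the 3 highest Atoh1 levels, while Nhlh1 separates mutant from wild type libraries on both sides of that gap.

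Atoh7, a bHLH relative of Atoh1 that is required for retinal ganglion cells and in mouse marks bushy cells of the cochlear nucleus, had few reads. Atoh7 (ENSMUSG00000036816, chromosome 10, 63099651 to 63101279, plus strand) had raw counts of 14, 107, 53 and 59 in mutant 1 to 4, against 39, 48, 86 and 109 in wild type 5 to 8. Levels were 0.458, 4.21, 1.03 and 1.59 CPM in mutant 1 to 4, against 1.00, 1.87, 2.46 and 2.76 CPM in wild type 5 to 8. The mutant libraries held both the lowest and the highest value, 9.19-fold apart. In mutant 1 the exact 95% counting interval on the unscaled CPM was 0.252 to 0.773, and in mutant 2 it was 3.33 to 4.92. These intervals cover counting error only, and do not meet. The log2 fold change was -0.18 (SE 0.573, edgeR adjusted p = 0.923). It changed sign without mutant 1, mutant 3 or wild type 8. Wild type 5 and 6 were the lowest of the wild types, and mutant 1 the lowest of all. The log2 ratio of Atoh1 to Atoh7 was 5.21 ± 2.28 in mutant and 5.44 ± 1.11 in wild type libraries (SD, n = 4 each; exact two-sided permutation p = 0.83, also 0.83 adjusted over 4 pairs).

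Lhx2 and Lhx9 encode LIM homeodomain proteins that in the spinal cord mark neurons born from Atoh1 progenitors. Lhx2 (ENSMUSG00000000247, chromosome 2, 38339281 to 38369733, plus strand) was at 1.90, 6.89, 1.98 and 1.70 CPM in mutant 1 to 4, against 1.98, 5.88, 4.58 and 2.58 CPM in wild type 5 to 8. Mutant 2 stood apart from the other mutants and was above all wild types. The log2 fold change was -0.28 (SE 0.506, edgeR adjusted p = 0.85), and it was 0.02 without wild type 6 and -0.998 without mutant 2.

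Lhx9 (ENSMUSG00000019230, chromosome 1, 138825186 to 138848577, minus strand) was at 10.4, 15.8, 5.89 and 5.19 CPM in mutant 1 to 4, against 9.64, 5.61, 6.44 and 6.45 CPM in wild type 5 to 8. Mutant 2 was again the highest, and mutant 3 and 4 lay beside the wild types. It was the only member with a positive log2 fold change, 0.39 (SE 0.332, edgeR adjusted p = 0.644), which was 0.02 without mutant 2. The log2 ratio of Lhx2 to Lhx9 was -1.70 ± 0.53 in mutant and -1.004 ± 1.02 in wild type libraries (SD, n = 4 each; exact two-sided permutation p = 0.257, and 0.343 adjusted over 4 pairs).

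Pou4f1, the POU homeodomain factor Brn3a of sensory and some central neurons, had the lowest level per kilobase. Pou4f1 (ENSMUSG00000048349, chromosome 14, 104461676 to 104467999, minus strand) had raw counts of 36, 46, 23 and 21 in mutant 1 to 4, against 50, 96, 39 and 99 in wild type 5 to 8. Levels were 1.18, 1.81, 0.447 and 0.567 CPM in mutant 1 to 4, against 1.28, 3.74, 1.12 and 2.51 CPM in wild type 5 to 8. Mutant 3 and 4 lay below every wild type library, and mutant 1 and 2 lay among them. The log2 fold change of -1.14 (SE 0.501) was the most negative of the 9 and did not pass (edgeR adjusted p = 0.383, unadjusted p = 0.0434), and it was negative in all 18 alternatives, from -1.57 to -0.75. The part of the cranial ganglion markers above, which include Isl1 and Prph, in this value was not tested.

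Set side by side over the 8 libraries, the members did not move as a block. Mutant 2 had the highest Atoh7, Lhx2 and Lhx9 and the lowest Atoh1 and Barhl1, whereas mutant 4 had the lowest Nhlh1, Nhlh2, Barhl2, Lhx2 and Lhx9.

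**Figure D5:**
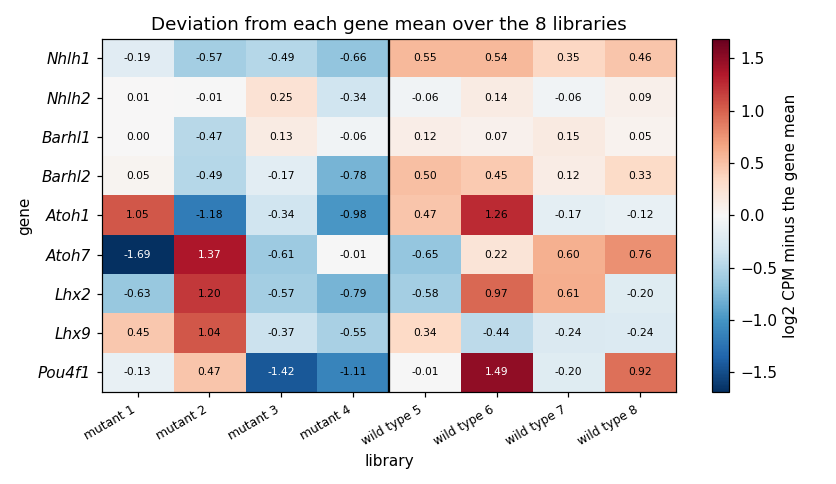
Log2 CPM of each gene (rows) in each library (columns, mutant left of the line and wild type right) minus that gene's mean over the 8 libraries; red is above the mean and blue below. The Nhlh1 row is blue in all mutant and red in all wild type libraries, while the Atoh7 row runs from -1.69 in mutant 1 to 1.37 in mutant 2.

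The genes whose profile over the 8 libraries was nearest to that of Nhlh1 were Flrt3, Plcd1 and Sphkap, among 9481 genes averaging 3 or more on the log2 CPM scale. The measure was the root mean square difference of log2 CPM centred on each gene's mean, which was 0.12 for Flrt3, 0.139 for Plcd1 and 0.156 for Sphkap, where Nhlh1 itself deviated by 0.496 from its own mean. Flrt3, a leucine-rich repeat adhesion protein, was at 20.6 ± 0.561 CPM in mutant and 41.0 ± 2.29 CPM in wild type libraries (SD, n = 4 each). Sphkap, which binds protein kinase A, was at 174 ± 21.9 CPM in mutant and 282 ± 19.9 CPM in wild type libraries (SD, n = 4 each). Plcd1, a phospholipase C, was at 8.12 ± 1.21 CPM in mutant and 13.3 ± 0.971 CPM in wild type libraries (SD, n = 4 each). Because these genes were picked for a profile like that of Nhlh1 in the same libraries, their lower mutant levels follow from the choice and are given with no test.

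Related genes were read from 6 lists, and edgeR called 0 of them. Of all tested genes 12.5% had an unadjusted p below 0.05, and 51.6% had a negative log2 fold change. The counts of each list stand beside these shares, and no set test was run. DESeq2 called 2.4% and limma-voom 0.349% of all tested genes, and edgeR without mutant 1 and wild type 5 and 6 called 0.849%. Without those 3 libraries edgeR called 1 bHLH, 1 LIM, 2 POU and Bar, 1 young neuron and 1 mature neuron gene, all lower in mutants, and 0 of the excitatory list. Without mutant 1 alone, where 2.7% of tested genes were called, the calls went in both directions. Lower in mutants were 1 bHLH, 2 LIM, 1 POU and Bar and 2 young neuron genes. Higher in mutants were 1 LIM, 1 POU and Bar and 1 excitatory gene, and 0 of the mature neuron list were called. Of 18 tested bHLH relatives 3 were under 0.05 before adjustment; DESeq2 called 1 and limma-voom 0. That gene was Neurod4, a proneural factor, at 49.0 ± 19.0 CPM in mutant and 105.5 ± 28.9 CPM in wild type libraries (SD, n = 4 each; log2 fold change -1.11, SE 0.279, edgeR adjusted p = 0.159). Without mutant 1 and wild type 5 and 6 Neurod4 passed (log2 fold change -1.06, edgeR adjusted p = 0.0318). Olig1 was at 6.76 ± 2.05 CPM in mutant and 11.8 ± 5.17 CPM in wild type libraries (SD, n = 4 each, edgeR adjusted p = 0.35). Of 16 tested LIM homeobox and cofactor genes 3 were under 0.05 before adjustment; DESeq2 called 2 and limma-voom 0. The genes DESeq2 called were Lmo3, with a log2 value of -0.91 (SE 0.192, edgeR adjusted p = 0.08), and Lmo4, at 0.50 (SE 0.129, edgeR adjusted p = 0.145), both LIM-only proteins that compete for the cofactor Ldb1.

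Of 8 tested POU and Bar relatives 2 had an unadjusted p below 0.05, beside 12.5% of all tested genes. DESeq2 and limma-voom each called 1. The median log2 fold change was -0.52 with 1 of 8 positive, where 51.6% of all tested genes had a negative value. The called gene was Pou3f3, a POU factor of neural progenitors and neurons, at 14.98 ± 7.30 CPM in mutant and 35.7 ± 5.62 CPM in wild type libraries (SD, n = 4 each; log2 fold change -1.26, SE 0.279, edgeR adjusted p = 0.103). Without mutant 1 and wild type 5 and 6 Pou3f3 passed (-1.44, edgeR adjusted p = 0.00493).

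Nhlh1 is a marker of young neurons. Of 17 tested young neuron genes 4 had an unadjusted p below 0.05, beside 12.5% of all tested genes. DESeq2 called 1 of this list and limma-voom 0. Ebf3, a helix-loop-helix factor of differentiating neurons, was the gene called by DESeq2, with a log2 value of -0.56 (SE 0.115, edgeR adjusted p = 0.0709). Insm1, a zinc finger factor of newborn neurons, had -0.80 (SE 0.275, edgeR adjusted p = 0.292). The median of the list was -0.11, and its summed level was 5166 to 6064 CPM in mutant and 5020 to 6033 CPM in wild type libraries. Of 9 mature neuron genes 7 had a positive value, with a median of 0.33, where 51.6% of all tested genes had a negative value. In the same list 2 had an unadjusted p below 0.05, beside 12.5% of all tested genes, while DESeq2 called 1 and limma-voom 0. Those were the neurofilament gene Nefm, at -1.07 (SE 0.263, edgeR adjusted p = 0.146; called by DESeq2), and Rbfox3, which encodes NeuN, at 0.39 (SE 0.126, edgeR adjusted p = 0.255). The summed level of this list was lowest in mutant 1 and wild type 5 and 6. Without these 3 libraries Nefm passed (-1.34, edgeR adjusted p = 0.00772) and Rbfox3 did not (0.38, edgeR adjusted p = 0.52).

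Of 13 other genes of rhombic lip derivatives and excitatory neurons 5 were under 0.05 before adjustment, beside 12.5% of all tested genes. DESeq2 called 1 and limma-voom 0. Calb2, the calcium-binding protein calretinin, was at 23.9 ± 9.86 CPM in mutant and 11.4 ± 3.22 CPM in wild type libraries (SD, n = 4 each; log2 fold change 1.06, SE 0.293, edgeR adjusted p = 0.195; called by DESeq2). Slc17a6, the vesicular glutamate transporter VGLUT2, was at 472 ± 80.3 CPM in mutant and 608 ± 74.5 CPM in wild type libraries (SD, n = 4 each; log2 fold change -0.37, SE 0.14, edgeR adjusted p = 0.315).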

How the data were processed

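The authors deposited raw read counts per Ensembl gene for 8 libraries, not normalised, with a gene length that the file header calls width. Per the labels, the TotalScript kit turned 2 ng of RNA into each library, primed by poly-A and random primers over 14 PCR cycles, and the pool filled 3 lanes. The build was mm10 and bcl2fastq 1.8.4 was used, per the submitters' processing notes. Aligner, counter, annotation release and strand: not given in the sources used here. Column headings give the group and a running number, not the replicate number of the titles. No pair of libraries of a group agreed within sampling noise (lowest chi-square per gene 22.7).

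Genes kept by filterByExpr (19494 of 39017) were TMM-scaled and tested in R 4.3.3 with edgeR 4.0.16, by a robust quasi-likelihood fit of 4 mutant against 4 wild type libraries with no covariate. The threshold was a Benjamini-Hochberg adjusted p below 0.05. Standard errors are approximate (log2 fold change over the square root of F), and 95% intervals are built from them. The test was checked on simulated data. DESeq2 1.42.0, limma 3.58.1 (limma-voom), other scalings and filters and omitted libraries were alternatives. Overlaps and positions come from GENCODE M21, where no member shares exon bases with another gene. Counting intervals are exact Clopper-Pearson intervals at 95% and cover counting error only, since PCR copies are not independent molecules.

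The members, lists and left-out libraries were chosen with earlier results of these data known. Named were all members, Hoxa2 and Hoxb2, the 2 genes of smallest p in each list (up to 3 where any passed) and the 3 profiles nearest to each member that passed. Cell cycle genes were named as a list. Of the genes picked by this rule, 1 is not reported here. Protein identity was planned and not run.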

Additional observations from a re-analysis of the deposited data

Results flagged for a closer look

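Of 26 sets of 4 values checked for a library apart from the other 3 of its group, 2 held one, and chance gives about 1 in 20. Lhx2 was at 6.89 CPM in mutant 2, where the other mutant libraries were at 1.70 to 1.98 CPM. The log2 ratio of Nhlh1 to Nhlh2 was -1.07 in wild type 5, where the other wild type libraries were at -1.31 to -1.27.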

How the results depend on the processing

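No paired analysis was possible because the column headings do not carry the replicate numbers of the titles, so the fit with these as a block was not run. Nhlh1 passed in all 18 alternatives, and without mutant 1 and wild type 5 and 6 it was the only member to pass. The count of all called genes, 70, became 214 with no low-count filter, 480 with DESeq2, 222 with limma-voom with quality weights and 171 without mutant 1 and wild type 5 and 6, and ran from 26 (without mutant 4) to 544 (without mutant 1) with single libraries left out. The count of members called, 1, became 2, by the addition of Barhl2, with no low-count filter, DESeq2, limma-voom with quality weights and without mutant 1, and ran from 1 to 2 with single libraries left out. The cause was not tested. The log2 fold change of Atoh7 ran from -0.96 to 0.14, that of Nhlh2 from -0.13 to 0.06 (0.0637 without mutant 4) and that of Lhx2 from -0.998 to 0.0177 with single libraries left out. The difference in log2 ratio of Atoh1 to Atoh7 ran from -1.20 to 0.59, and that of Nhlh1 to Nhlh2 from -0.99 to -0.81. Without the 3 libraries the Nhlh difference was -0.93 with an exact permutation p of 0.1, the smallest that 3 against 2 libraries allow. Single libraries of low count limit Atoh7 and Pou4f1. The order by M21 exon length was an alternative chosen after seeing the data. It moved Barhl2 to rank 2, Nhlh2 to rank 4, Lhx2 to rank 7 and Lhx9 to rank 8.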
